A study of Mus musculus with 2 samples.

Results

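Runx1 and Ets1 are lymphoid transcription factor genes, and the regions of open chromatin around them were compared between early thymic progenitors without and with the E proteins E2A and HEB. The members are all accessible regions (peaks) whose centre lies in a window of mm9 chromosome 16 from 92.50 to 93.00 Mb for Runx1, and in a window of chromosome 9 from 32.40 to 32.70 Mb for Ets1. Membership follows from position alone, although the windows were drawn with earlier results of these data known. They held 51 of the 69896 peaks of the double-knockout list and 55 of the 85764 peaks of the wild-type list, or 68 of 103454 regions when a region found in both lists is counted once. Of these, 48 lay in the Runx1 window and 20 in the Ets1 window.

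The assay was ATAC-seq: a transposase cuts open DNA and tags it for sequencing. There were 2 libraries, 1 per genotype, both from fetal thymus of the C57BL/6 strain. The double-knockout library (E2Afl/flHEBfl/flIL7RCre) came from cells with floxed alleles of E2A and HEB and the IL7RCre driver, which acts in lymphoid cells that have used the Il7r locus. The other library came from wild-type cells. Both populations were sorted for CD44 and ckit and against CD4, CD8, CD25 and lineage markers, the phenotype of early thymic progenitors, and the double-knockout sort also asked for YFP. The age and number of the animals are not given in the labels, and neither the deletion nor the cell type could be checked in the peak lists. The wild-type list held 10 peaks on chromosome Y and the double-knockout list 0, so that differences of sex, sort or depth cannot be told apart from those of genotype. Every comparison below is therefore a description of 2 libraries, without a replicate or a test.

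RUNX1 binds DNA through its Runt domain, together with its partner CBFB, and is needed for the first blood stem cells and for the development of T cells. Its gene has a distal and a proximal promoter, and a blood stem cell enhancer is known in the long intron between them. ETS1 belongs to the ETS family, which recognises a GGAA core, and acts in T, B and natural killer cells. E2A and HEB bind E-box sequences (CANNTG) and work beside both factors in T-lineage cells.

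The Runx1 starts that RefSeq lists are shown because the strongest region of the Runx1 window, by its mean rank in both libraries, lay close to the approximate gene start. Each sequence runs 5′ to 3′ on the minus strand of GRCm38.p6, from 250 bases before a start to 50 bases after it. Capitals mark matches to the motifs searched on both strands, namely TGTGGT for RUNX factors, the E-box CAGCTG, the further E-box CAGGTG, the ETS motif GGAAGT and AGATAA for GATA factors. Other E-boxes of the form CANNTG were not searched for and are not marked. No mm9 peak was set beside these GRCm38 coordinates.
Runx1 distal promoter, chr16:92826025-92826324: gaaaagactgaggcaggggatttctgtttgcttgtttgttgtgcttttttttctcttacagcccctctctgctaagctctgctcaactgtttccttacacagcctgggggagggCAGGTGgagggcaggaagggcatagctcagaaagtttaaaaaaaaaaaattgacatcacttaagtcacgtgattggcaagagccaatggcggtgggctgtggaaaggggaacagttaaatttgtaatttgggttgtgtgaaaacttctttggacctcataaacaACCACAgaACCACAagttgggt
Runx1 proximal promoter, chr16:92697280-92697579: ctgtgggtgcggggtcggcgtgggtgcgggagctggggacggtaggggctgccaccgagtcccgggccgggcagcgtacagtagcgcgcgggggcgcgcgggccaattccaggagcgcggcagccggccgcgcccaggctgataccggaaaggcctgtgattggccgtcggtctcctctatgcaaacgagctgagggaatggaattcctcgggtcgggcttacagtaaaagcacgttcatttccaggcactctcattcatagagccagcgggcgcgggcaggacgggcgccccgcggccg
The distal sequence held 1 CAGGTG E-box at bases 115 to 120, counted from its 5′ end. It also held TGTGGT in reverse, as ACCACA, at bases 279 to 284 and 287 to 292, and none of these matches overlapped. Among 32851 mouse promoters of the same length, 20.2% held CAGGTG and 16.8% held TGTGGT on either strand. CAGCTG was found in 16.3%, GGAAGT in 23.8% and AGATAA in 11.2% of them, and these letters are not in either Runx1 sequence. The proximal sequence held no match to any of the 5 motifs. It contained 35 CpG dinucleotides at 69% G and C, against 2 CpG at 45% in the distal sequence, while the median promoter had 7 CpG and 52.7%.

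Values of single peaks are given as percentiles of the authors' peak score within the whole list of the same library, where 100 would be the strongest peak and 50 the median. No source used here gives the unit of the score, so scores are not set against each other across libraries. A region was called kept if its double-knockout and wild-type peaks overlapped by at least 1 bp, gained if it was found in the double knockout alone, and lost if it was found in the wild type alone. Kept regions are located by their wild-type peak.

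The Runx1 window was dense in open regions in both genotypes. It held 38 double-knockout and 39 wild-type peaks, or 7.6 and 7.8 per 100 kb, against a mean over the autosomes of 2.75 in the double knockout and 3.38 in the wild type. Of 4952 adjacent autosomal windows of 500 kb, 6.08% held as many double-knockout peaks and 9.47% as many wild-type peaks. The Ets1 window held 13 double-knockout and 16 wild-type peaks, or 4.33 and 5.33 per 100 kb. Among 8247 windows of 300 kb, 28.4% in the double knockout and 28.2% in the wild type had at least as many. Runx1 thus had 0.974 double-knockout peaks per wild-type peak, and Ets1 0.812, against 0.815 over both whole lists.

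At Runx1, 29 regions were kept, 9 gained and 10 lost. Gained regions made up 23.7% of the double-knockout peaks (exact Clopper-Pearson 95% interval 11.4 to 40.2%), where 25.3% of all double-knockout peaks were gained. Lost regions made up 25.6% of the wild-type peaks (13.0 to 42.1%), where 39.1% of all wild-type peaks were lost. The gained share thus stood near the background and the lost share below it, although its interval includes the background.

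At Ets1, 9 regions were kept, 4 gained and 7 lost. The gained share was 30.8% of the double-knockout peaks (9.09 to 61.4%) and the lost share 43.8% of the wild-type peaks (19.8 to 70.1%). Both intervals include the shares over the whole lists, and at 13 and 16 peaks they are too wide to place the window above or below them. At equal list lengths the gained share was 53.8%, against 31.4% over the whole list. With the window widened by 100 kb on both sides, it was 40.5% (17 of 42 peaks), against 25.3% over the whole list. The lost share was then 39% (16 of 41 peaks), against 39.1%. The intervals cover counting error over peaks only and treat neighbouring peaks as independent.

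**Figure D1:**
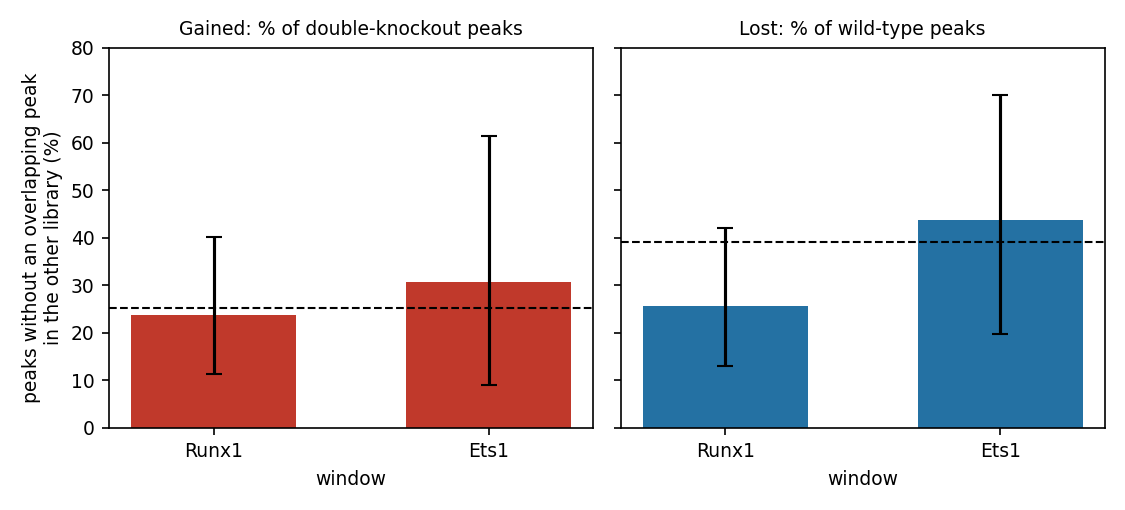
Gained peaks as a percentage of double-knockout peaks (left) and lost peaks as a percentage of wild-type peaks (right) in the Runx1 and Ets1 windows. Whiskers are exact 95% intervals and dashed lines mark the whole lists, at 25.3% gained and 39.1% lost, and every whisker crosses its line.

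By the mean percentile of both libraries, which orders the kept regions here, the strongest Runx1 region lay 3.6 kb inside the approximate gene start, whose bounds are known here only to 10 kb. This region, chr16:92826357-92826507, was called at identical coordinates in both libraries. It stood at percentile 95.6 in the double knockout and 93.2 in the wild type. Because this site was chosen for its high mean percentile, its high rank in both genotypes is a description only.

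The region with the next highest mean, chr16:92802049-92802199, lay 24.3 kb further into the gene. Its percentile was 90.6 in the double knockout and 93.8 in the wild type, where it was the strongest peak of the window. The peaks of the 2 libraries overlapped there by only 31 bp, the smallest overlap of any kept pair in both windows, and their centres lay 120 bp apart. The wild type had a second peak next to it, chr16:92801245-92801395 at percentile 75.4, which had no double-knockout partner. A single double-knockout peak, overlapping the stronger wild-type peak and 533 bp from the weaker one, therefore stood against a pair in the wild type.

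Further along, in the end-side part of the gene (past its midpoint), several strong regions were kept. The region chr16:92641486-92641636 was at percentile 90.9 in the double knockout and 84.0 in the wild type. Its neighbour chr16:92621101-92621251 was at 82.2 in the double knockout and 83.6 in the wild type. The differences were 6.9 and -1.5 percentile points. Another strong site in this part, chr16:92698978-92699128, was at 83.4 in the double knockout and 69.7 in the wild type, a difference of 13.7 points, and was named after its values were seen.

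**Figure D2:**
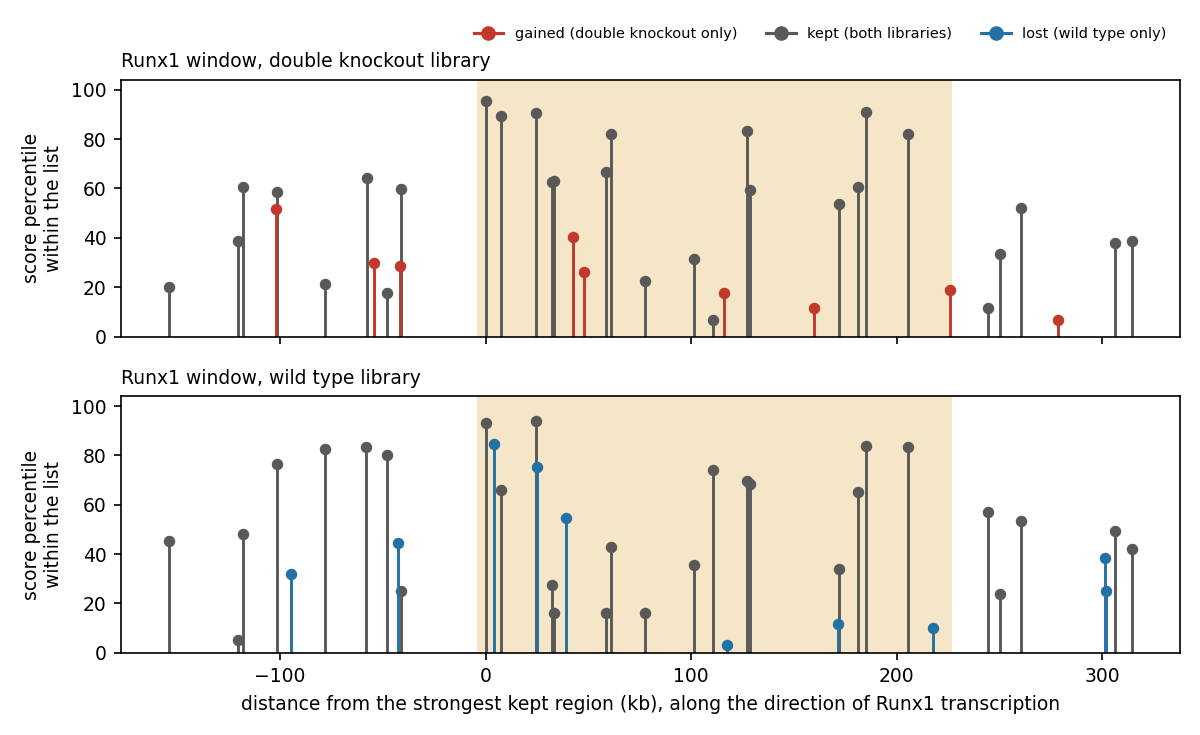
Peaks of the Runx1 window by distance in kb from the kept region of highest mean percentile, with transcription running to the right, and score percentile within the double-knockout list (top) and the wild-type list (bottom). The shaded span is the approximate gene body; 29 kept regions are grey, 9 gained red and 10 lost blue, with the cluster of tall double-knockout peaks starting at the gene start.

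Inside the start-side part of Runx1, several weak or middling wild-type regions ranked far higher in the double knockout. The largest difference upwards was at chr16:92767801-92767951, at percentile 66.7 in the double knockout and 16.1 in the wild type, a difference of 50.5 points. The region chr16:92793266-92793416 was at 62.9 in the double knockout and 16.1 in the wild type. At chr16:92765128-92765278 the percentile was 82.1 in the double knockout and 42.8 in the wild type.

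The same direction held close to the gene start. The region chr16:92818893-92819043, 7.46 kb past the strongest site, was at percentile 89.4 in the double knockout and 66.2 in the wild type. Of the 6 kept regions between 7.5 and 61.2 kb past the strongest site, 5 ranked higher and 1 lower in the double knockout. That stretch was singled out after its values were seen. Over the whole start-side part, 7 of 10 kept regions ranked higher, against 35.6% of all 52206 kept regions of the genome. The median difference there was 15.0 points, against -2.7 over the genome. Weak wild-type regions ranked higher in general. Kept regions of the genome at wild-type percentiles 10 to 20 had a median difference of 7.4 points and an upper quartile of 22.3. The start-side regions at percentile 16.1 started among these weak regions. The differences named above at chr16:92767801-92767951 and chr16:92793266-92793416, 50.5 and 46.8 points, exceeded that upper quartile. Another region at 16.1, chr16:92748660-92748810, differed by 6.6 points and lay under it.

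The start-side part of Runx1 also held the largest difference downwards and the strongest lost sites. The kept region chr16:92715912-92716062 was at percentile 6.7 in the double knockout and 74.0 in the wild type, a difference of -67.3 points. It lay 110.44 kb past the strongest site and close to the midpoint. With gene bounds known only to 10 kb, its placing in this part is uncertain. The strongest lost peak, chr16:92822466-92822616, had percentile 84.7 in the wild type and lay 3.89 kb past the strongest site. Its nearest double-knockout peak was 3.4 kb away, the region of percentile 89.4 described above. Sites of the start-side part of Runx1 thus differed in both directions.

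Upstream of Runx1, 2 strong wild-type sites ranked far lower in the double knockout. The region chr16:92874377-92874527, 48.0 kb before the strongest site, was at percentile 17.5 in the double knockout and 80.3 in the wild type. At chr16:92904348-92904498 the percentile was 21.4 in the double knockout and 82.7 in the wild type. Both sites were thus still called in the double knockout, but among the weak peaks of its list.

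All 4 kept regions from 48.0 to 101.7 kb before the strongest site ranked lower in the double knockout, a stretch also singled out after its values were seen. Among all 8 kept upstream regions, 3 ranked higher and 5 lower, a split close to that of the genome, with a median difference of -18.6 points and a range from -62.8 to 34.6. The 6 kept regions of the end-side part split evenly, 3 higher and 3 lower, with a median of 2.7 points. Downstream of the gene, 1 ranked higher and 4 lower, with a median of -3.4, near the genome median of -2.7.

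Over all 29 kept Runx1 regions the differences went both ways. The median difference was -1.3 points (order-statistic 95% interval -9.0 to 13.7), and 14 ranked higher and 15 lower, where 35.6% of all kept regions ranked higher. A difference of at least 20 points upwards was found in 7 of the 29, against 7.40% of all kept regions, and one of at least 20 points downwards in 5, against 17.8%. With the wild-type list shortened to the length of the double-knockout list, these were 8 of 25 against 12.9% and 4 of 25 against 12.0%. The regions at wild-type percentiles 5.1 and 16.1 were then no longer kept. Among them were the regions with the largest differences upwards, 50.5 and 46.8 points. Spearman's rho between the percentiles of both libraries was 0.3 over the 29 regions and 0.77 over all kept regions of the genome. As a description, and by this measure alone, the ranks of Runx1 regions were less alike between genotypes than those of kept regions in general. The mix of starting ranks differed, because the median wild-type percentile of kept regions was 53.3 at Runx1 and 63.7 over the genome. No interval is given for rho, and a comparison at like starting ranks follows below.

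The 9 gained Runx1 regions were weak, with percentiles from 6.7 to 51.5 and a median of 26.3 in the double knockout. The strongest, chr16:92928487-92928637 at percentile 51.5, lay 0.3 kb from a wild-type peak. A second one near a wild-type peak, chr16:92868089-92868239 at percentile 28.5, had a gap of 0.2 kb. The third upstream one, chr16:92880805-92880955, was at 29.6. Within the gene, the start-side pair chr16:92784102-92784252 and chr16:92778267-92778417 stood at percentiles 40.2 and 26.3. The remaining 4, at 6.7 to 18.9, lay in the end-side part of the gene and downstream. None of the gained regions was in the upper 10% of the double-knockout list.

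Lost Runx1 regions were more varied, with percentiles from 3.3 to 84.7 and a median of 35.2 in the wild type. Besides the 2 strong ones named above, only chr16:92787447-92787597, at percentile 54.6, was above the wild-type median score. It lay 3.2 kb from a gained region of percentile 40.2. The next were chr16:92868953-92869103 upstream, at 44.4, and chr16:92524902-92525052 downstream, at 38.6. The median over all lost peaks of the genome was 28.6, and that over all gained peaks 30.5.

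The strongest Ets1 region, chr9:32503449-32503599, was the strongest of both windows. It stood at percentile 96.7 in the double knockout and 98.1 in the wild type, and lay in the gene, 63.5 kb past its approximate start. The direction of Ets1 transcription, towards higher coordinates, is background knowledge. As at Runx1, this site was chosen for its high mean percentile in both lists, so that its similar ranks are a description only. Kept regions of the top wild-type decile differed by a median of -1.1 points over the genome.

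In the end-side part of Ets1, 4 of 5 kept regions ranked higher in the double knockout, against 35.6% of all kept regions, with a median difference of 28.4 points. The region chr9:32548719-32548869 was at percentile 91.6 in the double knockout and 63.3 in the wild type. Its neighbour chr9:32553580-32553730 was at 75.6 in the double knockout and 68.7 in the wild type. A pair of sites 35.08 and 36.03 kb past the strongest region differed more.

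Of that pair, chr9:32539477-32539627 was at percentile 64.0 in the double knockout and 8.5 in the wild type, the largest difference upwards in both windows at 55.4 points. The other, chr9:32538524-32538674, was at 46.8 in the double knockout and 6.8 in the wild type. Both were thus among the weakest wild-type peaks and middling peaks in the double knockout. The single end-side region with a lower rank, chr9:32513854-32514004, was at 65.8 in the double knockout and 85.2 in the wild type.

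**Figure D3:**
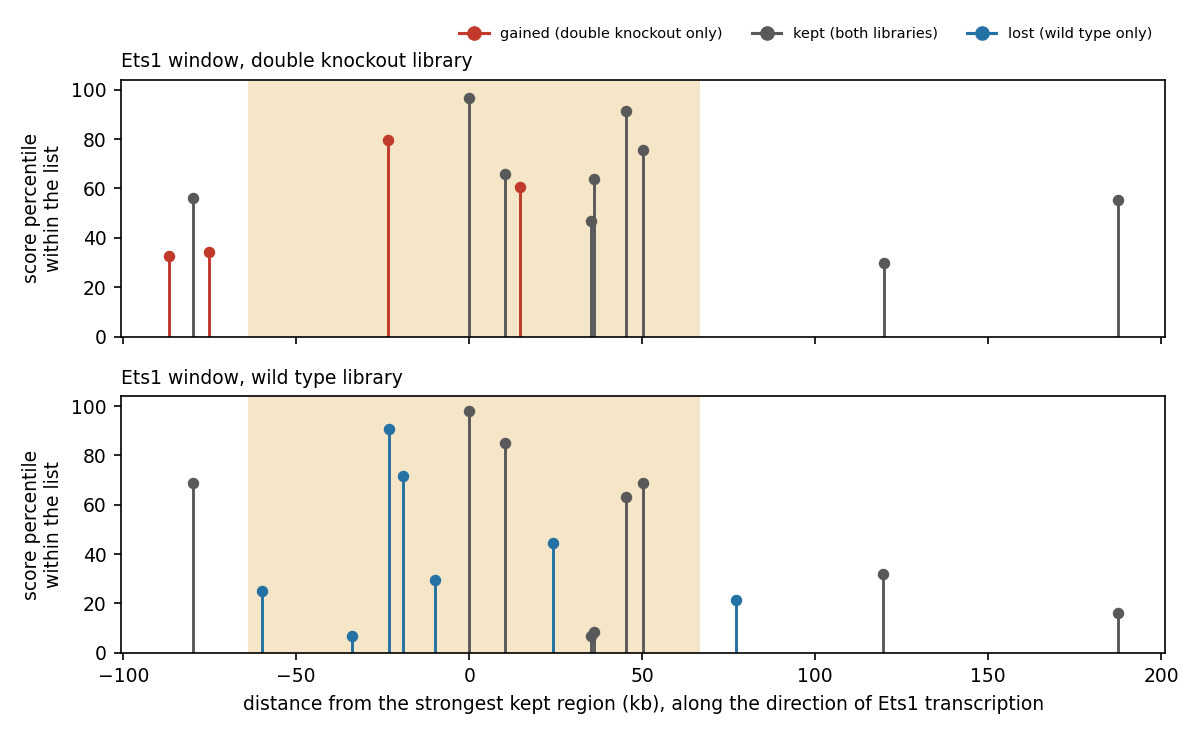
Peaks of the Ets1 window by distance in kb from the kept region of highest mean percentile, with transcription running to the right, and score percentile within the double-knockout list (top) and the wild-type list (bottom). The shaded span is the approximate gene body. Left of the strongest region inside it, 1 gained (red) peak stands against 5 lost (blue) peaks. Right of the strongest region inside the gene body are 5 kept regions (grey), 1 gained peak and 1 lost peak.

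The start-side part of Ets1, from the approximate start to the midpoint, held 2 double-knockout and 6 wild-type peaks. Besides the strongest region, none of these was kept, with 1 gained and 5 lost. The strongest lost peak, chr9:32480170-32480320 at percentile 90.8 in the wild type, lay 44 bp from the gained peak chr9:32479975-32480125 at percentile 79.7 in the double knockout. This was the smallest gap of any pair called apart in both windows, so the site was accessible in both libraries and was called at neighbouring positions.

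The other 4 lost peaks of the start-side part had no double-knockout peak nearer than 4.1 kb. They were led by chr9:32484265-32484415 at percentile 71.5 in the wild type. The others were chr9:32493536-32493686 at 29.7, chr9:32443620-32443770 at 25.2 and chr9:32469421-32469571 at 6.8. Past the midpoint, chr9:32527784-32527934 was lost at percentile 44.4, and downstream chr9:32580594-32580744 at 21.5. Apart from the displaced site, 1 of the 6 lost Ets1 peaks was thus above the wild-type median.

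The remaining gained Ets1 peaks were of low to middling rank. Within the gene, chr9:32518064-32518214 was at percentile 60.6 in the double knockout, 4.1 kb from the nearest wild-type peak. Upstream, chr9:32428199-32428349 was at 34.3 and chr9:32416565-32416715 at 32.5. They stood on either side of the kept region chr9:32423666-32423816, at percentile 56.2 in the double knockout and 69.0 in the wild type. Downstream, chr9:32690893-32691043 was kept at percentile 55.2 in the double knockout and 16.1 in the wild type, and chr9:32623123-32623273 at 29.6 in the double knockout and 31.8 in the wild type.

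Over the 9 kept Ets1 regions the median difference was 6.9 points (order-statistic 95% interval -12.8 to 39.9), with 5 higher and 4 lower in the double knockout, where 35.6% of all kept regions ranked higher. At least 20 points upwards were found in 4 of the 9, against 7.40% of all kept regions, and at least 20 points downwards in 0, against 17.8%. Of these 4, 3 were in the weakest 20% of the wild-type list. Kept regions of the genome also ranked higher there in the double knockout, by a median of 15.6 points in the lowest 10% and 7.4 in the next. The upper quartiles were 30.7 and 22.3 points. The Ets1 differences were 39.9 and 55.4 points in the lowest 10% and 39.1 in the next. With the wild-type list shortened to the length of the double-knockout list, 3 of the 9 regions were no longer kept and 1 of the other 6 ranked at least 20 points higher, against 12.9% of all kept regions.

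Because differences depend on the starting rank, each region was also set beside the kept regions of the same wild-type decile. Of the 29 Runx1 regions, 12 differed by more than the upper quartile of their decile, 11 lay between the quartiles and 6 below the lower one. For Ets1 these counts were 5, 3 and 1. By construction, a quartile of all kept regions lies outside on each side. The start-side Runx1 regions chr16:92765128-92765278 and chr16:92818893-92819043 exceeded upper quartiles of 7.5 and 2.0 points, with differences of 39.3 and 23.3. The upstream regions of percentile 80.3 and 82.7 in the wild type, with differences of -62.8 and -61.3, stood far under a lower quartile of -15.3.

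**Figure D4:**
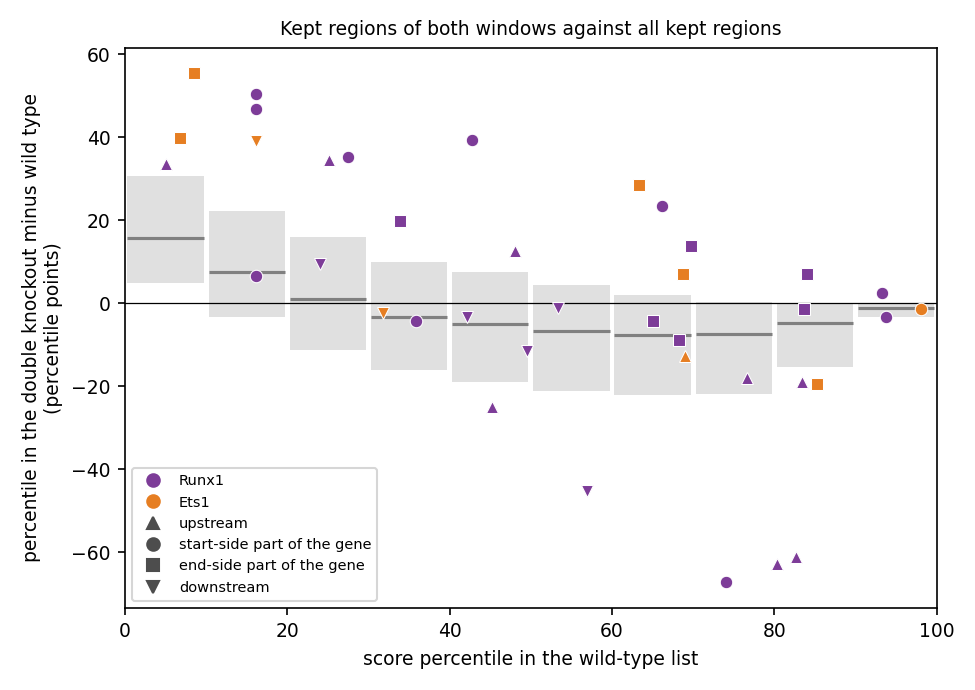
Percentile in the double knockout minus percentile in the wild type, in percentile points, against the wild-type percentile for the 29 Runx1 (purple) and 9 Ets1 (orange) kept regions, with the part of the window given by the symbol. Grey boxes span the quartiles, and grey lines the medians, of all 52206 kept regions by wild-type decile; the Runx1 points reach from -67.3 to 50.5 and the Ets1 points from -19.5 to 55.4.

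The window limits cut through no dense group of peaks at Runx1. The nearest region outside it was 1.1 kb before the lower limit, kept at percentile 10 in the double knockout and 43.6 in the wild type. Beyond the upper limit, a gained peak of percentile 18.9 lay 19.2 kb away and a lost peak of percentile 0.3 lay 11.4 kb away. At Ets1 a strong kept region lay only 0.4 kb outside the lower limit, at percentile 84.1 in the double knockout and 83.1 in the wild type. The next one beyond the upper limit, 9.1 kb away, was at percentile 62.9 in the double knockout and 43.6 in the wild type. Widened by 100 kb on both sides, the Ets1 window held 42 double-knockout and 41 wild-type peaks, against 13 and 16. Most peaks of the widened Ets1 window thus lay outside the limits used here.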

How the data were processed

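The authors deposited 1 peak list per library, so that peaks were called per sample, with a score per peak in a column without a header. Its unit was not given with the score. Per the submitters' processing notes, Bcl2fastq 1.8.4, Bowtie and HOMER were used with the build mm9; their roles and settings are not listed. The read depth, the peak threshold, the treatment of duplicates and any shift of read ends are not given there either, and each could change which weak peaks are listed. All peaks were 151 bp wide except 1 per list.

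Percentiles are mid-ranks of the score within each whole list. They depend on list length, because a longer list holds more weak peaks below a given site. Lists were matched by overlap, and each kept peak had 1 partner. Shares carry exact Clopper-Pearson 95% intervals and medians an order-statistic interval. Windows, gene bounds, members and named peaks (per gene the 5 strongest kept, the 5 strongest lost, up to 10 gained, and the 3 largest differences each way) were chosen with earlier results of these data known. The matching was tested on simulated lists. Promoter sequences, from RefSeq's GRCm38.p6 table, matched 1 of the 2 genes. Python 3.11.15, NumPy 2.4.6, pandas 2.3.3 and SciPy 1.17.1 were used.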

Additional observations from a re-analysis of the deposited data

How the results depend on the processing

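No paired analysis was possible because each genotype had a single library, which also means that leaving out a replicate could not be tried. The gained and lost shares and the median percentile differences at both genes were recomputed with other overlap rules, score limits, list lengths, merging, windows and percentile bases. Of 54 recomputed values, 52 stayed within the interval of the value reported. This is a weak criterion, because the intervals are wide and the settings largely reuse the same peaks. The Ets1 gained share, for example, ran from 22.2% to 53.8% within its interval of 9.09 to 61.4%. The Runx1 gained share was 5.26% (1 of 19 peaks) when the upper 50% of each list was set against the whole other list. Only 1 of the 9 gained Runx1 peaks was in the upper 50% of its list. The share was 42.1% (8 of 19) when only the upper 50% of both lists was used. A wild-type partner below the median then no longer counts as a partner. No whole-list share is given for these settings. The medians of the percentile differences changed sign with the setting, at Runx1 to 3.9 at equal list lengths, 6.8 in the gene body alone, 5.0 with percentiles among kept peaks and 0.5 with an overlap of at least 50% of both peaks, and at Ets1 to -2.9 in the upper 50% of both lists. The Ets1 median was 17.6 in the gene body alone and 14.6 with percentiles among kept peaks. The median over all kept regions of the genome changed sign too. It was -2.7 in the main setting, 0.8 at equal list lengths and 0.6 with percentiles among kept peaks. At equal list lengths, an alternative for counts of large differences that was added after the data were seen, 8 of 25 Runx1 regions ranked at least 20 points higher, against 12.9% of all kept regions, and 4 at least 20 points lower, against 12.0%. The Ets1 count of regions at least 20 points higher was then 1 of 6, because the shorter wild-type list no longer held 3 weak peaks. It also no longer held the wild-type peaks of the kept Runx1 regions at percentiles 5.1 and 16.1. The small number of peaks per window, and the unknown read depth, limit every share given.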

Other observations

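The longest stretch without a peak of either list in the Runx1 window was 41.2 kb (chr16:92826508-92867717) and began directly upstream of the strongest region. In the Ets1 window it was 67.5 kb (chr9:32623315-32690823) and lay downstream of the gene. With gaps of up to 5 kb joined, the longest wild-type runs at Runx1 held 3 peaks each, one of 7.6 kb ending at the strongest region (chr16:92818893-92826507) and one of 4.9 kb downstream of the gene (chr16:92520198-92525052). No double-knockout run at Runx1 held more than 2 peaks, and no run of either library at Ets1 did. The wild-type run at the gene start included the lost peak of percentile 84.7 as its middle member.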
